A study of Mus musculus with 18 samples.

Results

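Hmcn1 and Hmcn2, the 2 hemicentin genes of the mouse, were followed among the 55453 gene symbols of the deposited count table. Both were chosen by name, with their levels at P10 and P2 already known. The levels by age below are therefore given as a description, and only the comparisons within an age were tested. The table holds 18 bulk RNA libraries of GFP+ cells sorted from the apical part of the mouse ventricles, in 6 groups of 3. The 2 baseline groups had no surgery and were taken at postnatal day 2 (P2) or 10 (P10). In the other groups the heart was exposed and put back (sham) or its apex was cut off (resection) at one of these ages, and cells were sorted 3 days afterwards, at P5 or P13. Every pup carried Tcf21-MerCreMer and Rosa-mTmG and was injected with tamoxifen at P1, the baseline pups included. GFP therefore marks cells in which Tcf21 was active around P1 and their progeny, and fibroblasts that first used Tcf21 later were not collected. Atria and valves were removed before sorting. Sex and the number of hearts per library are not given in the sources used here, so the tests measure the spread between libraries, which may in part be technical.

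Hemicentins are very large proteins of the extracellular matrix. Each begins with a von Willebrand factor A domain, continues with a long row of immunoglobulin-like domains and ends with EGF-like repeats and a fibulin-type module, which places the hemicentins among the fibulins. In the nematode, the ancestral hemicentin ties neighbouring tissues together across their basement membranes, the thin sheets of laminin, collagen IV, nidogen and perlecan on which cells sit. In vertebrates, hemicentins act at the edge of epithelia and in connective tissue, partly beside the Fras1 and Frem proteins. In the heart, matrix of this kind is made largely by fibroblasts.

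Hmcn1 (ENSMUSG00000066842.18) lies on the minus strand of chromosome 1 of GRCm38 from 150562524 to 150993435, and the longest of its annotated transcripts has 107 exons with 16902 coding bases. Hmcn2 (ENSMUSG00000055632.18) lies on the plus strand of chromosome 2 from 31314415 to 31460738, and its longest transcript has 98 exons with 15300 coding bases. The exons of all transcripts merged cover 21.2 kb in Hmcn1 and 16.1 kb in Hmcn2, against a median of 4.01 kb over the genes tested. An antisense gene, Gm20631, shares 399 exon bases with Hmcn1, which is 1.88% of the Hmcn1 exon sequence, and counting did not use strand. Gm20631 itself had at most 22 counts in a library. No other gene overlapped Hmcn2, and none of its 15612 stretches of 35 bases occurred in a transcript of another gene, so reads of the 2 hemicentins could be told apart.

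Because the levels of the 2 genes moved in opposite directions with age, the 250 bases before each annotated start are shown side by side, as given by RefSeq on GRCm38.p6. They cover chr1:150993436-150993685 on the minus strand for Hmcn1 and chr2:31314082-31314331 on the plus strand for Hmcn2. Both are written 5′ to 3′ and end at the base before the RefSeq start. For Hmcn2 this start lies upstream of the gene start given above, and its motif positions count from the RefSeq start. Capitals mark the CCAAT box (CCAAT, searched on both strands) in Hmcn1 and the AP-1 motif (TGANTCA) in Hmcn2.
Hmcn1: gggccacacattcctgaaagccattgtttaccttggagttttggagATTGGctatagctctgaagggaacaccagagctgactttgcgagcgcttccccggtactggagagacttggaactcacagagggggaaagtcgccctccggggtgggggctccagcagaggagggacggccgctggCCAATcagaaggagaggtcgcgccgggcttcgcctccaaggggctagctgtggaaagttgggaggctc
Hmcn2: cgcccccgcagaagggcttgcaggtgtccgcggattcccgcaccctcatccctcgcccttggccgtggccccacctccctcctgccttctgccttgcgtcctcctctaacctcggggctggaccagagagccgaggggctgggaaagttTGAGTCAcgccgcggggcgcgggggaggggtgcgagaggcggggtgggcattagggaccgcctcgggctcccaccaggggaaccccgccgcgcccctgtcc
The Hmcn1 stretch was 60% G or C with 11 CpG dinucleotides, and the Hmcn2 stretch was 72.4% G or C with 22 CpG. The median over 32817 promoters of the same length was 52.4% and 6 CpG. Hmcn1 held the CCAAT box at 2 positions, -204 and -68 from the start, a motif found in 33.8% of promoters, and Hmcn2 had no match. Hmcn2 held 1 AP-1 match, at -101, a motif found in 6.75% of promoters, and Hmcn1 had none. The letters of a Tead site (CATTCC, 12.6% of promoters) occurred in Hmcn1 at -242, and those of an E box (CANNTG, 66.2%) in Hmcn2 at -230. The GC box GGGCGG (32.7% of promoters), the TATA box TATAAA (12.4%) and the Runx letters TGTGGT (14.0%) had no match in either stretch. These matches describe letters and say nothing of which factors were bound.

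Library totals ran from 10462737 to 22980554 counts. The sorted cells had the markers of fibroblasts, since Tcf21 and Pdgfra were counted in all 18 libraries and the summed level of 10 fibroblast markers was 46103 to 108215 CPM (each count relative to its TMM-scaled library total). Sums of markers of other cells were far lower, at 163 to 1477 CPM for 10 cardiomyocyte genes, 175 to 481 for 9 endothelial genes, 1061 to 2512 for 9 mural genes, 5.29 to 1075 for 10 macrophage genes, 0 to 57.4 for 8 epicardial genes and 8.70 to 101 for 7 valve genes. The sums do not measure purity, since collagens weigh most in the fibroblast sum. Group means were 251 to 331 CPM for Tcf21 and 367 to 538 for Pdgfra. They were 443 to 1132 CPM for the mural gene Acta2 and 111 to 382 for the cardiomyocyte gene Actc1. Of genes used by Schwann cells, Sox10 was at 0 in 17 libraries, whereas Ncam1 (3.88 to 80.5 CPM), a cell adhesion gene of nerve and muscle as well, and Cdh19 (2.96 to 59.9 CPM) were counted in all 18. In bulk RNA, fewer cells that use a gene and less RNA of that gene per cell cannot be told apart.

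Hmcn1 was the hemicentin of the young cells, and Hmcn2 was the hemicentin of the older cells. The mean level of Hmcn1 was 72.2 ± 44.5 CPM (SD, n = 9) in the libraries of pups first studied at P2 and 16.4 ± 16.8 CPM (n = 9) in those of pups first studied at P10, which is 4.40-fold lower. The mean level of Hmcn2 was 3.14 ± 2.30 CPM in the former and 187 ± 88.8 CPM in the latter, 59.6-fold higher. The first set of libraries, from P2 and P5, is called the P2 window here, and the second, from P10 and P13, the P10 window. Hearts of the P10 window were digested for longer, and more days had passed since tamoxifen. These differences and age cannot be told apart. Some marker levels moved with age as well. The mean of Ncam1 was 65.7, 32.2 and 45.4 CPM in the P2 baseline, sham and resected groups and 12.6, 9.33 and 15.1 CPM in the P10 groups, whereas that of Cdh19 was 18.2, 19.6 and 11.4 CPM and then 14.9, 28.0 and 14.1 CPM. The summed cardiomyocyte markers were at 315 to 1477 CPM in the P2 window and 163 to 815 CPM in the P10 window, and the fibroblast markers at 46103 to 93038 and 72135 to 108215 CPM. The part of these markers in the levels by age was not tested.

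Hmcn1 was at 76.9, 89.2 and 73.2 CPM in the P2 baseline libraries and at 59.4, 16.4 and 7.89 CPM in the P10 baseline libraries. After sham surgery it was at 160, 13.7 and 24.1 CPM in the P2 window and at 18.4, 6.86 and 4.43 CPM in the P10 window. After resection it was at 105, 39.8 and 68.1 CPM in the P2 window and at 15.2, 8.01 and 11.0 CPM in the P10 window. The P2 baseline libraries lay close together, whereas replicate 1 of the P2 sham group and replicate 1 of the P10 baseline group stood well above their group. The titles of P10 baseline replicates 2 and 3 end in a letter P whose meaning the labels do not give, and these libraries had the lowest shares of mitochondrial counts of all 18 (0.253% and 0.198%, against 0.697% in replicate 1). Without both, the P10 window means were 17.6 ± 19.05 CPM for Hmcn1 and 204.7 ± 92.6 CPM for Hmcn2 (n = 7). The windows overlapped, because the lowest P2 library, a sham library, was under the highest P10 libraries. Baseline libraries of Hmcn1 did not overlap between the ages, as for 22.4% of genes tested, nor did resected libraries, as for 23.3%, whereas sham libraries overlapped. Counts of Hmcn1 ran from 80 to 3439 per library.

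Hmcn2 was at 1.15, 1.07 and 1.28 CPM in the P2 baseline libraries and at 332, 157 and 94.6 CPM in the P10 baseline libraries. After sham surgery it was at 2.28, 3.23 and 2.35 CPM in the P2 window and at 313, 104 and 98.9 CPM in the P10 window. After resection it was at 7.86, 3.29 and 5.78 CPM in the P2 window and at 229, 176 and 180 CPM in the P10 window. The highest P2 library was thus more than an order of magnitude under the lowest P10 library, and the windows did not overlap. Over all genes tested, 2.51% had windows that did not overlap, 1.15% with P10 higher. In the P2 window Hmcn2 rested on 21 to 134 counts per library, so its counting error there was the larger of the pair.

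**Figure D1:**
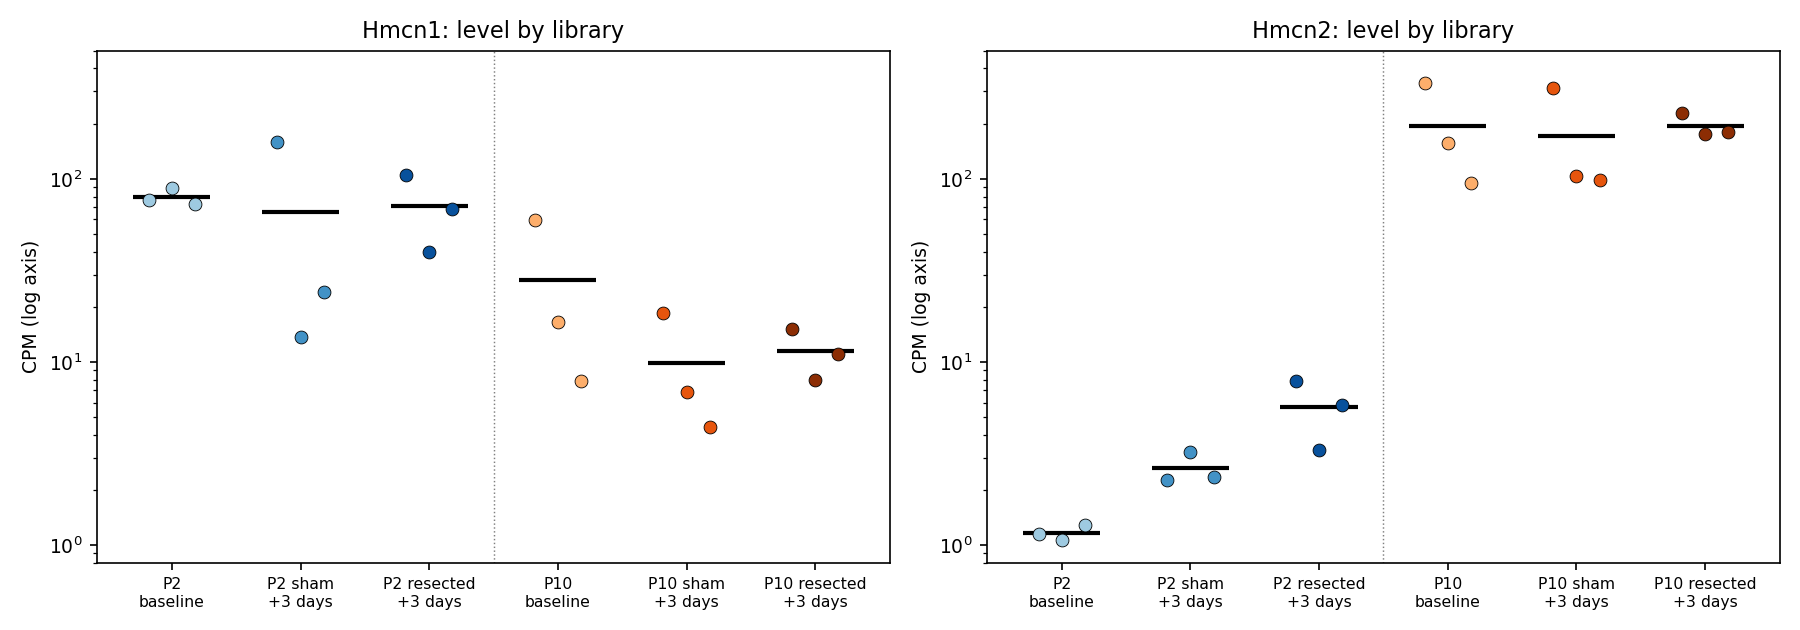
Level of Hmcn1 (left) and Hmcn2 (right) in each of the 18 libraries, in CPM on a log axis, with 1 point per library and a bar at the mean of each group of 3. Hmcn2 lies between 1.07 and 7.86 CPM in every P2-window library and between 94.6 and 332 CPM in every P10-window library, while the points of Hmcn1 overlap between the windows.

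The fitted log2 fold change from the P2 to the P10 window was -2.29 (SE 0.47) for Hmcn1 and 6.17 (SE 0.33) for Hmcn2. For Hmcn1 it was -1.51 (SE 0.80) between the baseline groups, -2.73 (SE 0.83) between the sham groups and -2.63 (SE 0.83) between the resected groups. For Hmcn2 it was 7.38 (SE 0.61), 6.03 (SE 0.56) and 5.11 (SE 0.54) in the same order. The direction was the same in each pair of groups for both genes, and the median gene tested differed by -0.060. Leaving out single libraries moved the Hmcn1 window value between -2.69, without P10 baseline replicate 1, and -1.69, without P2 sham replicate 1. The sham value of Hmcn1 depended most on 1 library, at -0.93 without P2 sham replicate 1, and its baseline value was -2.70 without P10 baseline replicate 1. The Hmcn2 window value stayed between 5.92 and 6.28 when single libraries were left out. Its baseline value was 6.75 without P10 baseline replicate 1, and its sham value 5.27 without P10 sham replicate 1.

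Levels of the 2 genes were compared with each other per kilobase of exon, since a longer gene collects more counts from the same number of transcripts. On this scale (CPM per kb) Hmcn1 was at 3.41 ± 2.10 and Hmcn2 at 0.196 ± 0.143 in the P2 window (n = 9). In the P10 window Hmcn1 was at 0.774 ± 0.793 and Hmcn2 at 11.6 ± 5.53 (n = 9). The 2 genes together rose from 3.60 ± 2.11 to 12.4 ± 6.16 CPM per kb, so the gain in Hmcn2 was larger than the loss of Hmcn1 and the pair as a whole was 3.45-fold higher. Among the genes tested, ranked by CPM per kb, Hmcn1 stood on average at percentile 48.3 in the P2 window and 27.4 in the P10 window, and Hmcn2 at 15.6 and 73.3.

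The share of Hmcn2 in the pair, per kilobase of exon, was 1.93%, 1.56% and 2.25% in the P2 baseline libraries. It was 1.84%, 23.6% and 11.4% in the P2 sham libraries and 8.99%, 9.83% and 10.1% in the P2 resected libraries. It was 88.1%, 92.7% and 94.0% in the P10 baseline libraries, and between 95.2% and 96.7% in the 6 libraries collected at P13. Hmcn1 was therefore the larger part of the pair in all 9 libraries of the P2 window and Hmcn2 in all 9 of the P10 window. The shares of the resected P2 libraries lay close together although their Hmcn1 levels ranged from 39.8 to 105 CPM. The high share of P2 sham replicate 2 went with its low Hmcn1 level of 13.7 CPM.

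**Figure D2:**
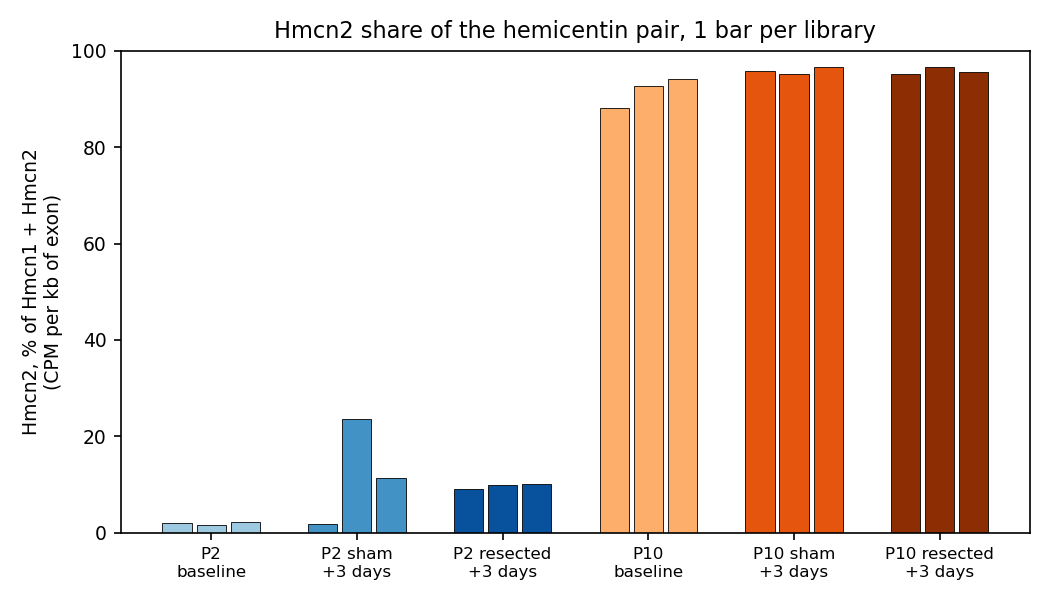
Share of Hmcn2 in the summed level of Hmcn1 and Hmcn2, in percent, computed from CPM per kilobase of exon, with 1 bar per library in the 6 groups. The share is at most 23.6% in the P2 window and at least 88.1% in the P10 window.

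The question of whether surgery changed the hemicentins was asked within each age. Neither gene passed the threshold (an adjusted p under 0.05 in edgeR's quasi-likelihood test over 16170 genes) between resected and sham libraries at either age. Over all genes, 0.0% were called in either comparison. Hmcn2 was 2.14-fold higher after resection than after sham surgery at P2 (log2 fold change 1.10, SE 0.48, 95% interval 0.082 to 2.11, adjusted p = 1 in edgeR). The 3 resected libraries were all above the 3 sham libraries, which held for 8.47% of genes in either direction. The number of genes detected did not overlap either, at 19707 to 20163 against 16384 to 17213. The summed fibroblast markers were at 58097 to 93038 against 51537 to 61899 CPM. The cardiomyocyte markers were at 315 to 922 against 908 to 1263 CPM. The part of these in the difference was not tested. Hmcn1 differed between the same groups by 0.11 on the log2 scale (95% interval -1.53 to 1.74, adjusted p = 1 in edgeR). Single libraries set its size and direction, as it was 1.91 without P2 sham replicate 1 and -0.39 without P2 sham replicate 2. At P10 the difference between resected and sham libraries was 0.18 for Hmcn2 (95% interval -0.76 to 1.12) and 0.21 for Hmcn1 (95% interval -1.46 to 1.87), with an adjusted p of 1 for both in edgeR. These intervals leave room for a change of more than 2-fold in either direction for Hmcn1 at both ages.

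Sham libraries were collected 3 days later than baseline libraries, so surgery and 3 days of growth cannot be told apart in the comparison of the 2. Hmcn2 was 2.25-fold higher in sham than in baseline libraries at P2 (log2 fold change 1.17, SE 0.52, 95% interval 0.081 to 2.26, adjusted p = 0.630 in edgeR), and the groups did not overlap, as for 9.96% of genes. At P10 the difference of Hmcn2 was -0.18 (95% interval -1.12 to 0.76, adjusted p = 1 in edgeR). Hmcn1 differed by -0.28 at P2 (95% interval -1.92 to 1.36, adjusted p = 0.989 in edgeR) and by -1.50 at P10 (95% interval -3.19 to 0.20, adjusted p = 0.729 in edgeR). Over all genes tested, 0.0% were called in edgeR with the filter between sham and baseline libraries at P2 and 0.00618% at P10. DESeq2 called 138 genes at P2 and 121 at P10, and edgeR without the filter 110 and 151. The P10 value of Hmcn1 was -0.30 without P10 baseline replicate 1, and it passed the threshold when no filter on low counts was used (adjusted p = 0.0339 in edgeR), where 0.522% of genes were called. The fit without the filter took the spread almost wholly from all genes together, with 687 degrees of freedom against 17.3 in the main fit. A gene's own spread between replicates therefore counted for little in it.

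Within the P2 window the mean level of Hmcn2 was 1.17 ± 0.11 CPM in baseline libraries, 2.62 ± 0.53 CPM in sham libraries and 5.64 ± 2.29 CPM in resected libraries (n = 3 each), with no overlap between neighbouring groups. The direct comparison of resected with baseline libraries, added after the values had been seen, gave a log2 fold change of 2.27 (SE 0.51, 95% interval 1.18 to 3.35, adjusted p = 0.191 in edgeR), where 0.0124% of genes were called. Surgery and 3 days of growth cannot be told apart in this comparison at either age. Its libraries did not overlap, which was so for 12.5% of genes. The call depended on the method. It was not made by the edgeR fit used throughout, and it was made by DESeq2 (adjusted p = 0.00322), by edgeR without the filter (adjusted p = 1.13e-06) and by edgeR with the filter and the long-gene covariate described below (adjusted p = 0.0412). These fits also called more of all genes, at 0.643%, 0.522% and 0.155%, and the fit without the filter pooled the spread as described above. Leaving out single libraries gave 1.96 to 2.55, with a smallest adjusted p of 0.229 in edgeR. Along with Hmcn2, the summed fibroblast markers were higher in the resected libraries (58097 to 93038 CPM) than in the baseline libraries (46103 to 54125 CPM). Collagens made up most of this sum, with a mean of Col3a1 of 39627 against 23297 CPM, whereas Tcf21 (251 against 293 CPM) and Pdgfra (394 against 413 CPM) were not higher. The macrophage markers were higher as well (66.2 to 444 against 14.6 to 64.9 CPM). The cardiomyocyte markers were lower, at 315 to 922 against 1092 to 1477 CPM, again without overlap. Over the 9 libraries of the P2 window, log2 CPM of Hmcn2 had a Pearson correlation of 0.625 with the summed fibroblast markers and of -0.77 with the cardiomyocyte markers. The number of genes detected stood apart as well, at 19707 to 20163 in resected libraries, 16101 to 18274 in baseline libraries and 16384 to 17213 in sham libraries. The part of the markers and of the genes detected in the result was not tested.

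In the P10 window the mean of Hmcn2 was 195 ± 123 CPM in baseline libraries, 172 ± 122 in sham libraries and 195 ± 29.7 in resected libraries (n = 3 each). These groups overlapped, and resected libraries differed from baseline libraries by 0.0023 on the log2 scale (95% interval -0.94 to 0.94, adjusted p = 1 in edgeR), where 0.0989% of genes were called. Whether surgery acted differently at the 2 ages was tested as an interaction. The resection effect on Hmcn2 was lower at P10 than at P2 by 0.92 (adjusted p = 1.000 in edgeR), and the sham effect was lower by 1.35 (adjusted p = 0.792). Leaving out single libraries gave -1.20 to -0.15 for the first difference, the latter without P10 sham replicate 1, and -2.11 to -0.72 for the second, without P10 sham replicate 1 and without P10 baseline replicate 1. For Hmcn1 the same differences, P10 minus P2, were 0.10 (adjusted p = 1.000) and -1.22 (adjusted p = 0.972). None of the 4 passed the threshold in edgeR with the filter, nor did any other gene (0.0%). For the resection and sham differences, DESeq2 called 24 and 102 of all genes and edgeR without the filter 30 and 171, without a hemicentin among them.

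**Figure D3:**
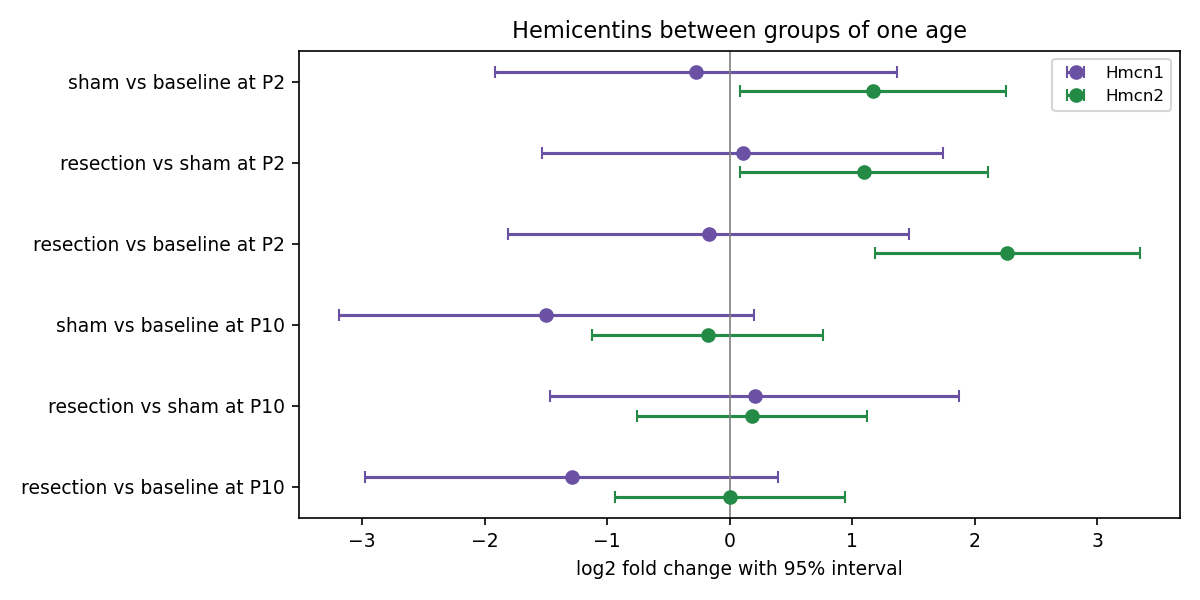
Difference between groups of the same age in log2 fold change, with 95% intervals from the edgeR fit, for Hmcn1 and Hmcn2. The intervals of Hmcn2 exclude 0 in the 3 comparisons at P2 before adjustment over genes, and all other intervals include 0.

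The level of Hmcn1 in both windows, and that of Hmcn2 in the P10 window, moved with the share of a library's counts on long genes. In each library, 6.26% to 13.5% of the counts fell on the 1566 genes with at least 10 kb of exon, the hemicentins left out, and replicates of a group could differ in it. It was 13.5% in P2 sham replicate 1, where Hmcn1 was highest, and 6.26% in P2 sham replicate 2, where Hmcn1 was lowest among the P2 libraries. Over the 9 libraries of the P2 window, the Pearson correlation of log2 CPM of Hmcn1 with the log2 of this share was 0.907, and over those of the P10 window 0.863 (rho 0.833 in both). Without the 2 libraries farthest from the median share, the values were 0.631 and 0.686. For Hmcn2 the correlation was -0.16 in the P2 window and 0.969 in the P10 window (0.983 without the 2 libraries). With each group's mean subtracted, r over the 18 libraries was 0.911 for Hmcn1 (rho 0.858) and 0.523 for Hmcn2 (rho 0.368). The summed level of Ncam1 and Cdh19 also followed Hmcn1 in the P2 window (r = 0.871, n = 9) and Hmcn2 in the P10 window (r = 0.870, n = 9). The other 2 values were -0.40 for Hmcn2 in the P2 window and 0.633 for Hmcn1 in the P10 window, and the part of these markers in the levels was not tested. The values within windows are descriptions over libraries that differ in group as well as in depth.

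With the log2 of the long-gene share as a covariate, a choice made after the data had been seen, the window difference was -1.62 (SE 0.22) in place of -2.29 for Hmcn1 and 6.33 (SE 0.26) in place of 6.17 for Hmcn2. The resection difference of Hmcn2 at P2 was then 0.68 (adjusted p = 0.755 in edgeR), and that of resected against baseline libraries at P2 was 2.33 (adjusted p = 0.0412). The covariate had 1 slope for all 18 libraries, whereas Hmcn2 followed the share in the P10 window (r = 0.969) and not at P2 (-0.16). These P2 values of Hmcn2 therefore cannot show the part of the share at P2. The window means of the share were 10.2% at P2 and 8.58% at P10.

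**Figure D4:**
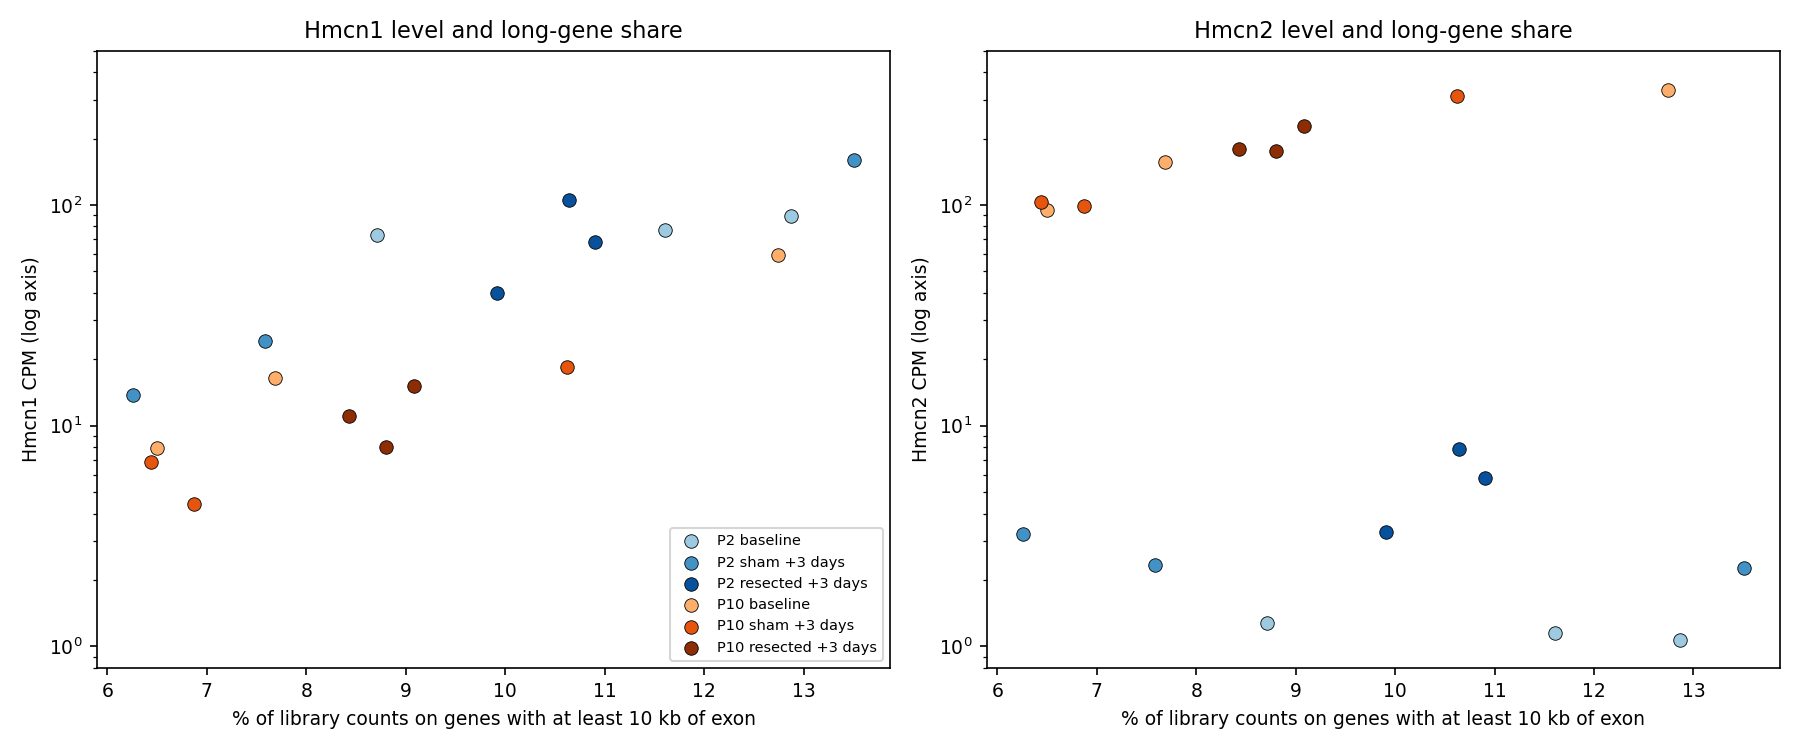
Level of Hmcn1 (left) and Hmcn2 (right) in CPM on a log axis against the percent of library counts on genes with at least 10 kb of exon, with 1 point per library coloured by group. Hmcn1 is higher in libraries with a larger share in both windows, and Hmcn2 in the P10 window, where the share runs from 6.44% to 12.7%.

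The levels of the 2 hemicentins were also set against each other within each window. Over the 9 libraries of the P10 window their log2 CPM gave a Pearson r of 0.846 and a Spearman rho of 0.85 (r = 0.793 without the 2 libraries farthest from the median of Hmcn1). Over the 9 libraries of the P2 window r was -0.10 and rho -0.23. Whether the windows differ in this was not tested.

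Over all 18 libraries, the genes whose log2 CPM followed Hmcn1 most closely were Smc4, a subunit of condensin (r = 0.948), the kinase Nrk (0.939), the mesenchymal cadherin Cdh11 (0.937), the zinc-finger gene Plagl1 (0.935) and Raph1, a regulator of actin at the cell edge (0.934). All were lower in the P10 window, as with Smc4 at 128 CPM in the P2 window and 39.1 CPM in the P10 window, and Nrk at 463 and 158 CPM. Those that followed Hmcn2 were the proprotein convertase Pcsk6 (r = 0.977), the secreted protein gene Crispld2 (0.968), Thbd, which encodes thrombomodulin (0.965), the microfibril-associated Adamtsl4 (0.959) and the metalloproteinase inhibitor Timp2 (0.958). They were higher in the P10 window, Pcsk6 at 829 and 2623 CPM and Crispld2 at 94.4 and 471 CPM. Hmcn1 against Hmcn2 gave r = -0.66.

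After each group's mean was subtracted, so that only the spread between replicates counted, other genes came first. They were Ankrd16 (r = 0.977), Sema5a (0.970), 9930021J03Rik (0.970), the chromatin gene Ash1l (0.968) and Zfp950 (0.955) for Hmcn1. Their exons covered 5.93 to 18.7 kb, each more than the 4.01 kb of the median gene. For Hmcn2 they were BC005537 (r = 0.933), the chromatin gene Asxl2 (0.912), Gm43359 (0.910), Nmt2 (0.903) and Kctd12 (0.902), with 2.20 to 15.9 kb of exon. All these correlations are over 18 libraries, and those of the named genes are the highest among all genes tested. Hmcn1 and Hmcn2 had r = 0.596 with each other by this measure, which was not among the highest for either.

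The other 6 genes of the fibulin family are short secreted glycoproteins of elastic fibres and basement membranes. Of them, 5 rose from the P2 to the P10 window in edgeR (adjusted p under 0.05) and none fell, where 13.5% of all genes tested were called, 7.11% higher and 6.39% lower. The median log2 fold change was 0.98 for the 6 fibulins and -0.060 for all genes. The largest rise was that of Efemp1, from 1.70 ± 1.70 to 42.3 ± 12.4 CPM (log2 fold change 4.66, SE 0.71, adjusted p = 0.000238), for which DESeq2 gave no p-value and the other 22 alternative fits made the call. In the P2 window 2 of 9 libraries had no count of it. Fbln1, which binds laminin and fibronectin, rose by 1.37 (SE 0.17, adjusted p = 3.17e-05), and Fbln5, needed for elastic fibres, rose by 1.03 (SE 0.12, adjusted p = 1.82e-05). Fbln2 rose by 0.93 (SE 0.14, adjusted p = 0.000262). Fbln7 rose by 0.76 (SE 0.24, adjusted p = 0.0447), a call made in only 8 of the 23 alternative fits and lost without a filter and on leaving out most single libraries. Efemp2 was not called, at 319 ± 40.3 and 343 ± 53.4 CPM (log2 fold change 0.11, adjusted p = 0.586).

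Per kilobase of exon, Hmcn1 had rank 5 among the 8 genes of the whole family in the P2 window and rank 8 in the P10 window, and Hmcn2 went from rank 8 to rank 6. Fbln2 was highest in both windows, at 159 ± 43.4 and 295 ± 70.0 CPM per kb (n = 9). The hemicentins together were thus a small part of the fibulin RNA of these cells. Hmcn1 made up 0.923% of the family's level in the P2 window and Hmcn2 1.69% in the P10 window.

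The Fras1 and Frem proteins form a complex at the basement membrane of skin, and Grip1 carries them to the cell surface. Of the 5 listed genes, 4 passed the filter on low counts and 1, Frem1, changed, where 13.5% of all genes were called and 6.39% fell. It fell from 27.0 ± 18.0 to 6.70 ± 4.47 CPM (log2 fold change -1.90, SE 0.41, adjusted p = 0.00428 in edgeR), the same direction as Hmcn1. Frem3 had no count in any library. Fras1 was at 0 in 4 of 9 libraries of the P2 window and 3 of 9 of the P10 window and never above 4.04 CPM. Frem2 was at 0 in 4 of 9 libraries of each window and reached 12.8 CPM in 1 library. Grip1 was at 0 in 6 of 9 of each.

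Of 29 basement membrane genes, 28 were tested, and 15 rose and none fell from the P2 to the P10 window in edgeR, where 7.11% of all genes rose and 6.39% fell, with a median log2 fold change of 0.76. The largest log2 fold changes among those called were those of the laminin chain Lamc3 (5.07, SE 1.41, adjusted p = 0.0293) and of collagen IV chains of the less widespread kinds. Col4a3 rose from 1.50 ± 1.86 to 16.3 ± 9.45 CPM (3.75, SE 0.71, adjusted p = 0.00163), Col4a6 from 1.52 ± 1.48 to 6.70 ± 4.11 CPM (3.01, SE 0.70, adjusted p = 0.00737) and Col4a4 from 4.65 ± 4.01 to 26.0 ± 10.8 CPM (2.57, SE 0.34, adjusted p = 5.54e-05). Lamc3 had only 230 counts over all libraries and none in 7 of 9 libraries of the P2 window, and it was called in 17 of the 23 alternative fits. Its call was lost with a replicate block and without P2 baseline replicate 1 or 2, P2 resected replicate 3, P10 baseline replicate 2 or P10 resected replicate 2. The 2 main collagen IV chains, Col4a1 and Col4a2, which the rule for named genes does not include, had log2 differences of -0.0028 (SE 0.22) and 0.019 (SE 0.22).

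Receptors and linkers that hold cells to the basement membrane gave 3 calls among 13 genes, where 13.5% of all genes were called, and their median log2 fold change of -0.055 was close to that of all genes (-0.060). The laminin-binding integrin chain Itga7 rose from 37.2 ± 19.5 to 101.8 ± 43.6 CPM (1.53, SE 0.19, adjusted p = 3.81e-05 in edgeR). Dag1, the laminin receptor dystroglycan, rose by 0.50 (SE 0.14, adjusted p = 0.0217), a call lost without P2 baseline replicate 1, P2 resected replicate 1 or P10 resected replicate 2. Itga6, another laminin-binding chain, fell from 55.6 ± 28.5 to 16.8 ± 8.20 CPM (-1.77, SE 0.34, adjusted p = 0.00179). The 2 called integrin chains thus moved in opposite directions. Itga3, a laminin-binding chain of the list that the rule for named genes does not include, was not called (1.13, SE 1.20, adjusted p = 0.597 in edgeR). The number of calls in this list was 2 to 5 when single libraries were left out, 5 without P10 baseline replicate 1 or P10 sham replicate 1, and 6 with the long-gene share as a covariate.

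**Figure D5:**
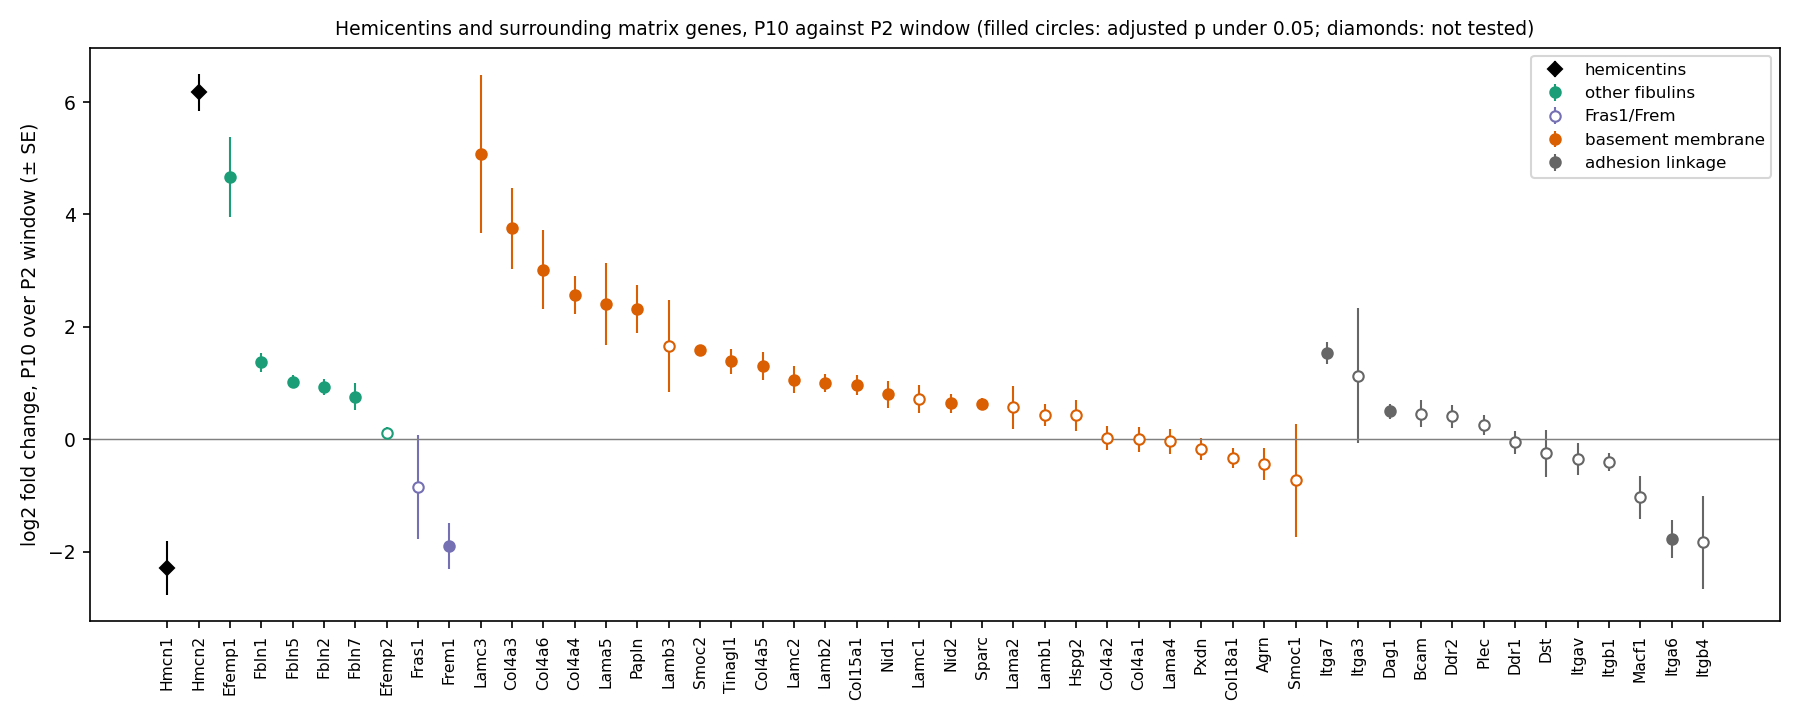
Log2 fold change from the P2 to the P10 window for 50 genes, the hemicentins and the tested genes of the 4 lists, with bars of 1 SE from the edgeR fit, leaving out genes with an SE of 1.5 or more. Filled circles passed an adjusted p of 0.05, open circles did not, and the diamonds of the hemicentins were not tested. Hmcn2 at 6.17 lies above every other gene drawn, and Hmcn1 at -2.29 below.

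Resection against sham surgery gave no call in any of these lists at either age in edgeR with the filter, as for all genes (0.0%). At P2, the unadjusted p was under 0.05 for 2 of 6 fibulins, 2 of 4 Fras1 and Frem genes, 4 of 28 basement membrane genes and 2 of 13 adhesion genes, where it was so for 4.51% of all genes. At P10 it was so for 0, 3, 1 and 1 of them, and for 4.09% of all genes. The 3 were Fras1, Frem2 and Grip1, each without a count in the P10 sham libraries and at a mean of at most 1.46 CPM after resection, so these p-values rest on very few counts. Of the genes counted at P2, Frem2, Lama5, Lamb3 and Lamc3 were likewise at a mean of at most 0.190 CPM after sham surgery. All 6 fibulins had a positive difference at P2, with a median of 0.48 on the log2 scale against 0 for all genes, and Fbln2 (0.78, SE 0.25, adjusted p = 1 in edgeR) was the largest. Frem1 was higher by 1.61 (SE 0.70, adjusted p = 1 in edgeR) at P2. DESeq2 called 2 basement membrane genes at P2, the laminin chain Lama5 (log2 fold change 5.12, adjusted p = 0.0227) and Col18a1 (1.37, adjusted p = 0.0372), both higher after resection. Lama5 was nearly without counts after sham surgery, at 0.190 ± 0.289 CPM against 6.29 ± 3.37 CPM after resection (n = 3 each), so the size of its fold change is imprecise. edgeR without the filter, with the spread pooled as described above, called the same pair (adjusted p = 0.00728 and 0.0350). Over all genes, DESeq2 called 0.155% and edgeR without the filter 0.083%. Lama5, Lamb3 and Col18a1 were named after their values were seen. At P2 the sham mean was under the baseline mean for Fbln2, Frem1, Col18a1 and Lama5. Baseline, sham and resected means were 1105, 711 and 1219 CPM for Fbln2 and 36.2, 11.0 and 33.7 CPM for Frem1. They were 105, 48.1 and 125 CPM for Col18a1, and the baseline mean of Lama5 was 1.02 CPM.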

How the data were processed

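The authors trimmed single-end reads with fastp 0.20.0, mapped them with STAR 2.7.0f to GRCm38.p6 with GENCODE M22 and counted reads on exons per gene name, without strand, with featureCounts of Subread 1.6.4. Libraries came from amplified cDNA of low-input RNA. The deposited table holds these whole-number counts, not normalized, for 18 libraries of 10462737 to 22980554 counts, and reads carry no molecular identifiers. By default featureCounts leaves out reads that fall on several genes.

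From the counts, edgeR 4.0.16 in R 4.3.3 kept 16170 genes by filterByExpr (minimum count 10, minimum total 15), scaled libraries by TMM and fitted 1 mean per group to all 18 libraries with the quasi-likelihood test. Adjusted p-values are Benjamini-Hochberg over all genes tested, called under 0.05, and the SE is the log2 fold change divided by the root of F. For correlations, log2 CPM used a prior count of 2. Exon lengths came from an annotation of GRCm38 that may differ in detail from the one used for counting, and 98.3% of symbols had a length. The fit was tested on simulated data. The members, the lists and the comparisons were chosen with earlier results of these data known, so counts within lists are descriptions. Named genes are the hemicentins, the fibulin and Fras1/Frem genes, up to 4 called genes per direction in the other lists with the largest change between the windows, and the 5 genes most like each hemicentin by each of 2 measures. Alternatives were DESeq2 1.42.0, other scaling, no filter, a replicate block, only the compared groups, leaving out each library, and the long-gene share as a covariate. The spatial data of the study were not analysed here. The level of 1 marker gene and the sum of its list are not reported here.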

Additional observations from a re-analysis of the deposited data

How the results depend on the processing

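Between the ages, 118 alternatives left the direction of both hemicentins as given, and 4 of them, each with 1 library left out, moved a value by more than the spread between replicates. Between groups of an age, not counting the added comparison of resected with baseline libraries, 168 alternatives gave 21 changes of sign, none of them past the threshold, and 1 call. The call was Hmcn1 at P10, sham against baseline, at -1.49 (adjusted p = 0.0339) without a filter on low counts. With the long-gene share as a covariate, Hmcn1 was -0.037 for resection against sham surgery at P10 and -0.14 for the resection effect at P10 minus P2. Resected against baseline libraries at P10 gave -0.014 for Hmcn2 with RLE scaling, -0.0062 without a filter, -0.014 with DESeq2 and -0.021 with only the compared groups. Resected against baseline libraries at P2 gave, for Hmcn2, 2.29 without a filter, 2.33 with the long-gene share and 2.28 with DESeq2.

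Leaving out 1 library at a time gave these log2 ranges. For Hmcn1, resection against sham surgery was -0.39 to 1.91 at P2 and -0.15 to 1.02 at P10, sham against baseline -2.08 to 0.22 at P2 and -2.31 to -0.30 at P10, resected against baseline -0.56 to 0.12 at P2, the difference of resection effects -1.70 to 0.91, that of sham effects -2.03 to 0.58, and P10 against P2 -2.70 to -1.07 at baseline and -3.55 to -0.93 after sham surgery. For Hmcn2, the difference of resection effects was -1.20 to -0.15, that of sham effects -2.11 to -0.72, resection against sham surgery -0.10 to 0.95 at P10, sham against baseline -0.94 to 0.45 at P10, resected against baseline -0.32 to 0.63 at P10, and P10 against P2 6.75 to 7.71 at baseline and 5.27 to 6.31 after sham surgery. For Hmcn1, resected against baseline libraries at P10 gave -1.29. The range on leaving out 1 library was -1.72 to -0.097, the latter without P10 baseline replicate 1. The causes were not tested.

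Replicate numbers in the labels are shared between groups, but the 45 pairs of same-numbered libraries had correlations of their deviations between -0.13 and 0.38, with 15 over 0.1 (median 0.047, against -0.025 for the other pairs). Not every pair was over 0.1, so the numbers were not taken to pair the libraries, although replicate 1 had the highest Hmcn1 in 5 of 6 groups and the highest Hmcn2 in all 3 groups of the P10 window. The sample titles carry other numbers, whose meaning the labels do not give and which were not examined as a pairing. Replicate 1 of P2 sham, P10 sham and P10 baseline all have a 3 in the title. Each was highest in its group for Hmcn1 and for the long-gene share. With the replicate number as a block, the resection effect on Hmcn1 at P10 minus P2 was -0.18, 5 in place of 3 adhesion genes were called between the windows (6 with the long-gene share, 2 to 5 with 1 library left out), and 2745 in place of 2183 of all genes. Over all genes, resection against sham surgery gave 0 calls at both ages in edgeR (730 at P2 and 661 at P10 with an unadjusted p under 0.05), 25 and 39 in DESeq2 and 24 and 76 without a filter, among them 2 basement membrane genes at P2 in DESeq2 and 2 without a filter. Depth limits Hmcn2 in the P2 window, where a library held as few as 21 counts.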
